A study of Homo sapiens with 3 samples.

Results

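Respiratory complex I is the NADH:ubiquinone oxidoreductase of the inner mitochondrial membrane, and its genes were followed here in Ishikawa, an established human cell line from an endometrial adenocarcinoma. The genes were chosen by name: every row whose symbol starts with NDUFA, NDUFB, NDUFC, NDUFS, NDUFV or NDUFAF, leaving out names with a hyphen or a pseudogene ending. This gave 46 of 35713 genes, namely 37 nuclear genes of subunits, 7 NDUFAF assembly factors, and NDUFA4 with its relative NDUFA4L2, which carry the name but are not counted as complex I subunits today. The rule left out 4 rows, 3 of them antisense RNAs and 1 a readthrough of NDUFC2 into KCTD14.

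The study holds 3 RNA-seq libraries. In 2 of them, CLDN6 replicates 1 and 2, the cells overexpressed claudin-6, a tight junction protein, from a lentiviral vector, and the labels call the overexpression transient. The third library is of cells labelled wild type (WT) and given no treatment. All were grown in Roswell Park Memorial Institute medium with serum and antibiotics. No empty-vector library is among them, so vector and CLDN6 effects cannot be told apart, and nothing in the labels says whether the cultures were separate. The comparison asks how the genes of complex I differ between cells with added CLDN6 and WT cells.

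Complex I takes electrons from NADH in the matrix, passes them along a chain of iron-sulfur clusters to ubiquinone, and couples this to the pumping of protons. The N module holds the NADH site, the Q module the ubiquinone site, and the membrane arm, built from a proximal and a distal part, the proton pumps. Some core subunits are encoded in the nucleus and others in mitochondrial DNA, so that the enzyme needs both genomes, and the supernumerary subunits around them serve assembly and stability. Assembly factors help to build the modules and are absent from the finished enzyme. In endometrial epithelium, as elsewhere, the complex is a main entry point of electrons into the respiratory chain.

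The factors NRF1 and YY1, known regulators of genes for the respiratory chain, bind short DNA motifs, and the promoters of the members were searched for these as a feature that the choice by name did not use. RefSeq promoters (GRCh38.p14, 250 bases before to 50 after a gene's start) were found for 38 of the 46 genes; those not in the table include NDUFA4, NDUFA4L2, NDUFAF6, NDUFB5, NDUFB9, NDUFC2 and NDUFS5. The motif of NRF1 (nuclear respiratory factor 1), searched on both strands as GCGCA, then any base, then GCGC, was present in 7 of 38 (18.4%), beside 6.98% of 27305 genes in the same table. The stretches below show the 200 bases before the start, with the motif in capitals, for the 5 members that held it whole in that stretch. Both NDUFA3 and NDUFB4 held it there at 2 places, and NDUFB4 once more across the start. NDUFA8 and NDUFAF5 held it across or just after the start.
NDUFA3, chr19:54102655-54102854, plus strand: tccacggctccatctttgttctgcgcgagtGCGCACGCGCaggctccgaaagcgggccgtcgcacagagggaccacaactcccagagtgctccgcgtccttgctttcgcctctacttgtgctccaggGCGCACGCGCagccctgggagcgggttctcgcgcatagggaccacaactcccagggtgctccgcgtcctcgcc
NDUFA9, chr12:4648914-4649113, plus strand: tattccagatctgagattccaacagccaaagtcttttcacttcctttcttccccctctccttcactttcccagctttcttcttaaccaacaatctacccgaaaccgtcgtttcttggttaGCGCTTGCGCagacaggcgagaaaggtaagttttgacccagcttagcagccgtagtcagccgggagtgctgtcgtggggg
NDUFA11, chr19:5903791-5903990, minus strand: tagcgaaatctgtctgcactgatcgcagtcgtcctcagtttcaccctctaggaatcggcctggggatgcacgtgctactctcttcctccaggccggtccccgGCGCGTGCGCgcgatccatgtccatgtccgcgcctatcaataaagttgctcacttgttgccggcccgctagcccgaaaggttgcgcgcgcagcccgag
NDUFB4, chr3:120596136-120596335, plus strand: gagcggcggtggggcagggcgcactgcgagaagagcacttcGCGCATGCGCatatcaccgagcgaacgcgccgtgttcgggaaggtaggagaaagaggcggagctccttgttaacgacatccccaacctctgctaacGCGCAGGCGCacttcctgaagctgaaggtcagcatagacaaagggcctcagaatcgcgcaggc
NDUFA12, chr12:95003698-95003897, minus strand: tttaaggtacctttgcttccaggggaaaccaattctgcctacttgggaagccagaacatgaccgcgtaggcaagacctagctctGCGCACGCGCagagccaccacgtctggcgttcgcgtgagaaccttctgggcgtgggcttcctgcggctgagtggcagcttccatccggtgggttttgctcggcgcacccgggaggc

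The motif of the factor YY1, searched as AAGATGG on both strands, was present in 9 of 38 members (23.7%), beside 7.11% of 27305 genes. In 8 of these 9 a match lay on the coding strand after the start, first at position 11 in NDUFA9 and last at position 26 in NDUFA6, counted from 1 at the start. The 24 bases around these matches are shown because they let the common core be compared between members, with the motif in capitals. In NDUFA5 the match lay before the start, from position -133, and NDUFA3 held another there on the opposite strand. Matches of the 2 motifs did not overlap in any member, and 3 members, NDUFA3, NDUFA9 and NDUFA12, held both. The searched word contains ATG, the letters of a start codon, and whether these matches lie at start codons was not tested. Neither share over the 27305 genes was limited to protein-coding genes, which all the members are. A match describes letters only and shows no binding.
NDUFA3, chr19:54102868-54102891, plus strand: cggagacaAAGATGGctgcgagta
NDUFA6, chr22:42090732-42090755, minus strand: gctttggcAAGATGGcggggagcg
NDUFA7, chr19:8321346-8321369, minus strand: gcggacggAAGATGGcgtccgcca
NDUFA9, chr12:4649116-4649139, plus strand: tgtgggaaAAGATGGcggctgccg
NDUFA12, chr12:95003668-95003691, minus strand: agcgaggcAAGATGGagttagtgc
NDUFB8, chr10:100529839-100529862, minus strand: agaaggtgAAGATGGcggtggcca
NDUFS4, chr5:53560652-53560675, plus strand: cctgcagcAAGATGGcggcggtgt
NDUFS7, chr19:1383916-1383939, plus strand: ccgaggccAAGATGGcggtgctgt

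Each level is in RPM, reads per 1000000 reads of the library, and sets of 3 levels follow the order CLDN6 replicate 1, CLDN6 replicate 2, WT. The libraries had 71088868, 65755120 and 67843384 reads, and member rows held 92 to 20274 reads each, so that counting error was small for most of them. CLDN6 itself was read at 354, 413 and 0.236 RPM, and was the 1 gene of 14509 that the test across all genes called (limma with Benjamini-Hochberg adjustment, adjusted p under 0.05; log2 change 8.28 ± 0.98 SE). With limma-voom on recovered reads 0 genes were called, so that CLDN6 was not called either. Epithelial markers (EPCAM, CDH1, KRT8, KRT18 and KRT19) were all read, at a summed 5963, 6318 and 5918 RPM, most of it KRT8 and KRT18. CDH1, at 293, 116 and 235 RPM, and EPCAM, at 194, 98.5 and 125 RPM, were lowest in CLDN6 replicate 2. KRT8, KRT18 and KRT19 were each highest there. The endometrial markers PAX8, SOX17 and ESR1 were read, at a summed 394, 213 and 319 RPM, while FOXA2 had 0 reads. ESR1, at 99.8, 17.2 and 71.7 RPM, and PAX8 were lowest in CLDN6 replicate 2, and SOX17 was not. Of other cell types, the stromal genes VIM and DCN and the leukocyte genes PTPRC and CD3E had at most 9 reads in a library. Others of these lists were read more, HAND2 (stroma) with 115, 87 and 82 reads and CD68 (leukocytes) with 52, 71 and 81 reads. The stroma list as a whole (5 of 6 genes with reads, DCN at 0) summed to 18.3, 50.7 and 23.1 RPM, nearly all of it COL1A1. That list was highest in CLDN6 replicate 2, and its part in the results below was not tested. In such bulk samples, fewer cells of a type and less RNA per cell cannot be told apart. The summed endothelium list was 16.3, 12.5 and 9.99 RPM, nearly all VWF, with PECAM1 at 0 reads; the leukocyte list summed to 0.760, 1.10 and 1.253 RPM. Changes are differences in log2(RPM + 1), which understates the change of low genes.

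All 46 members passed the filter of a mean of at least 1 RPM. None was called higher or lower in CLDN6 than in WT (limma, Benjamini-Hochberg), beside 0.00689% of all genes called higher and 0.0% called lower, and 0 members had an unadjusted p under 0.05 by limma or by limma-voom on recovered reads. The largest log2 change of a member was 0.49, while the SE of members ran from 0.92 to 1.27. WT had 1 library, so the spread rests on the CLDN6 pair alone, and changes of the size seen in these genes were not detectable by this test. In both CLDN6 libraries, 0 members lay 2-fold or more above WT, beside 0.0345% of all genes, and 0 lay 2-fold or more below it, beside 0.193%. The same held at a limit of 1.5-fold, with 0 members above (0.303% of all genes) and 0 below (1.01%).

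The largest pattern among the subunits was a difference between the CLDN6 libraries themselves, with WT in the middle. Summed over the 37 nuclear subunits, the level was 1633 RPM in replicate 1 and 2648 RPM in replicate 2, while WT had 2100 RPM. In 22 of 37 subunits WT lay between the CLDN6 libraries with replicate 2 highest, beside 22.0% of all genes. In 4 subunits WT lay between with replicate 1 highest, beside 53.8% of all genes. The median change from WT was -0.25 in replicate 1 and 0.33 in replicate 2, where the medians of all genes were 0.20 and -0.35. Thus the subunits lay on the opposite side of WT from the bulk of genes in each library. Replicate 2 exceeded replicate 1 in 29 of 37 subunits, beside 32.9% of all genes, and by at least 2-fold in 10, beside 7.15%. The reverse, replicate 1 at least 2-fold above replicate 2, was seen in NDUFS1 and NDUFA5 alone among subunits, beside 36.2% of all genes. With the changes taken relative to the median of all genes, 5 of 37 subunits lay above WT in both libraries, beside 12.9% of all genes, and 1, NDUFA10, lay below in both, beside 12.9%. Both libraries carry the same label, so this difference is not one between the study's groups. Scaling by a trimmed mean, a median ratio or quantiles brought the medians of all genes to within 0.03 of 0 and widened the difference: replicate 2 then exceeded replicate 1 in 34, 35 and 34 of 37 subunits, where 48.4%, 49.9% and 51.1% of all genes did.

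**Figure D1:**
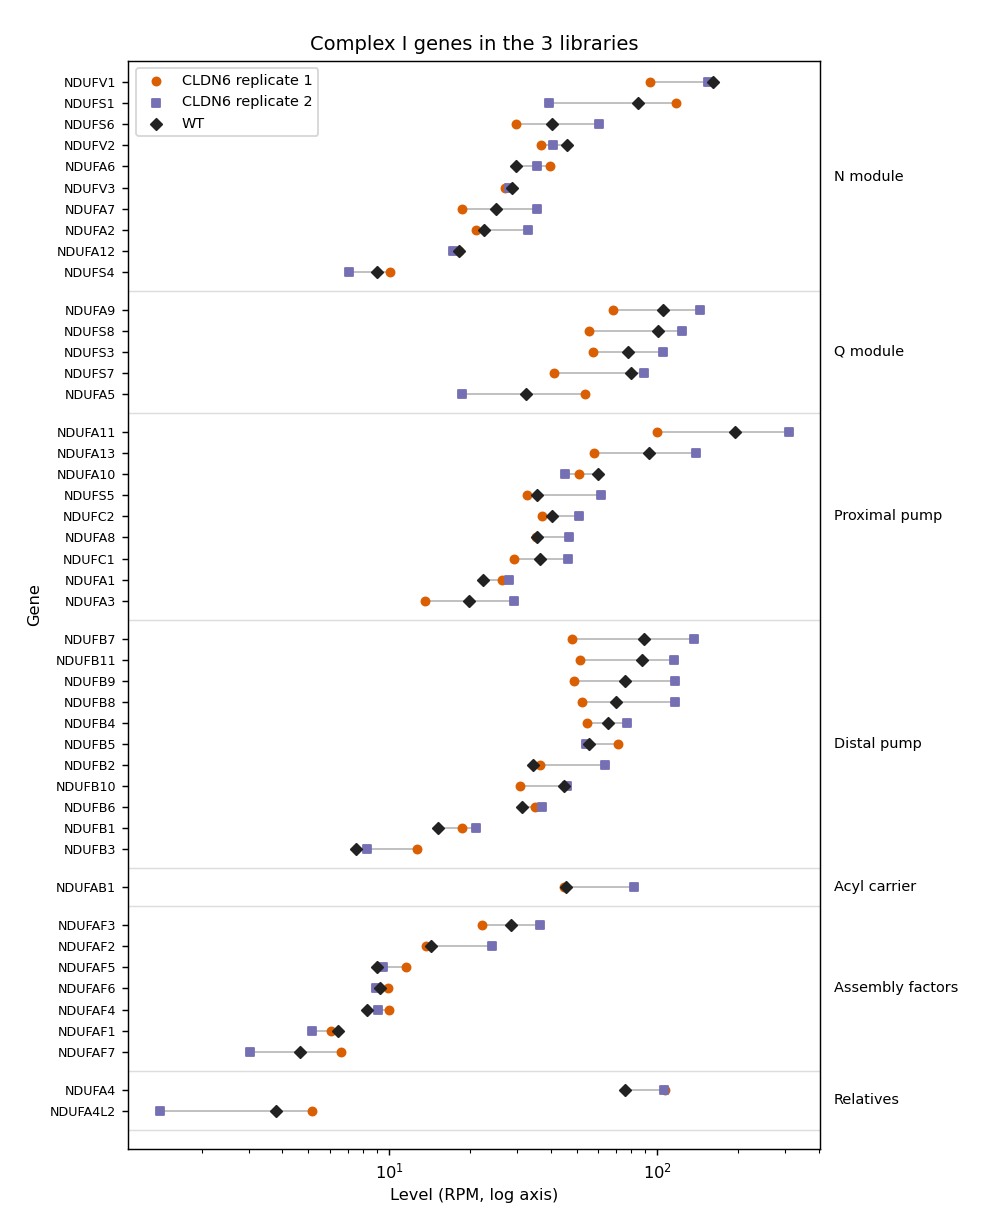
Level of 45 of the 46 genes (RPM, log axis) in CLDN6 replicate 1 (circles), CLDN6 replicate 2 (squares) and WT (diamonds), grouped by module and joined by a line from the lowest to the highest library. In 22 of 37 subunits the order was replicate 1, WT, replicate 2; in 4 (NDUFS1, NDUFA5, NDUFS4 and NDUFB5) it was the reverse.

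The N module takes up NADH. NDUFV1, the core subunit that binds FMN and NADH, was read at 93.7, 154.7 and 160.7 RPM, with replicate 2 close to WT and replicate 1 well below. Its ratio to WT was 0.583 in replicate 1 (95% counting interval 0.565 to 0.601) and 0.962 in replicate 2 (0.937 to 0.989). NDUFV2, its iron-sulfur partner, was at 36.7, 40.8 and 45.9 RPM, so both CLDN6 libraries lay below WT and near each other. The row of NDUFV2 shares its span with an overlapping transcript, RP11-21J18.1, and is uncertain for that reason. The small subunits NDUFV3, at 27.0, 27.9 and 28.7 RPM, and NDUFA12, at 18.22, 17.3 and 18.23 RPM, were nearly level across the libraries. In NDUFV3 and NDUFA12 the difference from WT stayed inside the counting intervals.

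NDUFS1, the large core subunit with several iron-sulfur clusters, ran against most subunits, at 117, 39.5 and 84.6 RPM. It was at least 2-fold below WT in replicate 2 and above WT in replicate 1, and its row overlaps GCSHP3 and, by 19 bases, EEF1B2. NDUFA6, an accessory subunit of the LYR protein family, was at 39.8, 35.5 and 29.8 RPM, above WT in both CLDN6 libraries. Of the other N module genes, the zinc-binding subunit NDUFS6, at 29.8, 60.4 and 40.5 RPM, was highest in replicate 2, as were NDUFA7 and NDUFA2. NDUFS4, which helps to hold the N module in place, was highest in replicate 1, at 10.07, 7.12 and 9.05 RPM. Over the 10 genes of this module the medians were -0.09 in replicate 1 and -0.05 in replicate 2, and 4 of 10 lay below WT in both libraries, beside 15.1% of all genes. Relative to the median of all genes, or under the trimmed-mean or median-ratio scaling, 0 of 10 did. Under quantile scaling 1 of 10 did, beside 1943 of 14509 genes. With a trend in GC content, length and level removed, 4 of 10 did, beside 2920 of 14372 genes. NDUFS1 was then among these in place of NDUFV3.

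The Q module passes electrons to ubiquinone. Its core subunits NDUFS3, NDUFS7 and NDUFS8, of which NDUFS7 and NDUFS8 hold iron-sulfur clusters, shared the order replicate 1, WT, replicate 2. NDUFS7 was at 41.0, 88.9 and 80.1 RPM and NDUFS8 at 55.7, 123.5 and 100.5 RPM, so that replicate 1 stood apart below the other 2 libraries. NDUFA9, a subunit at the foot of the arm with a nucleotide-binding fold, was at 68.2, 144.0 and 105.2 RPM; its row overlaps RP11-234B24.6 and RP11-500M8.7 on the same strand. NDUFA5 was the exception of this module, at 53.9, 18.8 and 32.4 RPM, highest in replicate 1. Medians over the 6 genes were -0.56 in replicate 1 and 0.22 in replicate 2.

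In the proximal part of the membrane arm, NDUFA11, a membrane subunit next to the proton pumps, was at 100.1, 308.3 and 193.8 RPM. Replicate 2 was thus above and replicate 1 below WT, with log2 changes of 0.67 and -0.95, the widest distance between the CLDN6 libraries among the 37 subunits. In GRCh38 the row spans 5891276 to 5904006 of chromosome 19, minus strand. Nearly all of its span is shared with AC024592.12, a row at 78.3, 252.5 and 153.7 RPM, so reads may be counted in both. NDUFA13, also known as GRIM-19, was at 58.0, 138.7 and 93.3 RPM and shares most of its span with CTC-260F20.3.

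NDUFA10, a subunit with a fold like that of nucleoside kinases, was at 51.0, 45.3 and 59.8 RPM. Both of its CLDN6 values lay below WT, and it has no overlapping row. NDUFA1, a small membrane subunit encoded on the X chromosome, was at 26.4, 27.9 and 22.4 RPM, above WT in both. The remaining 6 genes of the proximal part (NDUFA3, NDUFA8, NDUFC1, NDUFC2, NDUFS5 and NDUFA13) were each highest in replicate 2 and lowest in replicate 1. Medians over the 9 genes of this part were -0.23 and 0.38.

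The distal part of the membrane arm carries the NDUFB subunits. NDUFB7, a subunit on the intermembrane side held by disulfide bonds, was at 48.2, 137.3 and 88.8 RPM, with no overlapping row. Replicate 1 lay below and replicate 2 above WT in NDUFB7, as in NDUFB4, NDUFB8, NDUFB9, NDUFB10 and NDUFB11. NDUFB5, at 71.4, 54.1 and 55.6 RPM, was the one distal gene with WT between and replicate 1 highest. NDUFB2 was at 36.4, 63.8 and 34.4 RPM, so that replicate 2 stood apart above the other 2 libraries; it overlaps ADCK2, BRAF and NDUFB2-AS1. NDUFB3 showed the opposite, at 12.7, 8.30 and 7.55 RPM, with replicate 1 apart above.

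Both CLDN6 libraries lay above WT in NDUFB1 and NDUFB6 as well. NDUFB1, a small membrane subunit (chromosome 14, 92116122 to 92121917, minus strand, GRCh38) with no overlapping row, was at 18.7, 21.1 and 15.2 RPM. Its ratio to WT was 1.23 in replicate 1 (counting interval 1.13 to 1.34) and 1.39 in replicate 2 (1.28 to 1.51). NDUFB6 was at 34.9, 37.3 and 31.4 RPM, a smaller difference. Over the 11 genes of the distal part, medians were -0.25 and 0.40, with 4 above WT in both libraries (9.06% of all genes) and 0 below. Relative to the median of all genes, 3 of 11 lay above in both, beside 12.9% of all genes. With a trend in GC content, length and level removed, the CLDN6 libraries lay on opposite sides of WT in NDUFB1, NDUFB2 and NDUFB6. NDUFAB1, the mitochondrial acyl carrier protein that sits in both arms of the complex and also serves lipoic acid synthesis, was at 44.99, 81.7 and 45.7 RPM. Here replicate 1 and WT were nearly equal and replicate 2 stood above them.

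Averaged over the CLDN6 libraries, all 7 nuclear core subunits lay below WT, with a median of -0.27, and 12 of 30 supernumerary subunits did, with a median of 0.03, beside 61.8% of all genes. The averages of the core subunits included -0.41 for NDUFV1, -0.40 for NDUFS7, -0.31 for NDUFS1, -0.27 for NDUFS8, -0.24 for NDUFV2 and -0.01 for NDUFS3, each smaller than its SE. In 5 of these 7 genes the CLDN6 libraries lay on opposite sides of WT, with replicate 2 highest in 4 and replicate 1 highest in NDUFS1. With a trimmed-mean or median-ratio scaling 6 of 7 core subunits lay below WT on average, NDUFS3 being the one that did not, as did 7 and 5 of 30 supernumerary subunits, where 51.6% and 49.2% of all genes did.

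NDUFA4, first described in complex I and since placed in cytochrome c oxidase (complex IV), was at 106.3, 105.8 and 75.4 RPM. The CLDN6 libraries were nearly equal and both stood above WT, with ratios of 1.41 (counting interval 1.36 to 1.46) and 1.40 (1.35 to 1.45). The gene (chromosome 7, 10931951 to 10940256, minus strand, GRCh38) has no overlapping row. Its log2 change was 0.49 ± 0.94 (SE), higher in 2 of 2 CLDN6 libraries, with adjusted p = 0.99996 (limma, Benjamini-Hochberg). NDUFA4L2, a relative known to be induced under low oxygen, was at 5.18, 1.40 and 3.803 RPM, lowest in replicate 2; it overlaps the abundant SHMT2 by 33 bases.

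For 6 members the CLDN6 libraries lay above WT by more than the distance between them, beside 3.27% of all genes. These were NDUFA4, NDUFB1, NDUFA6, NDUFA1, NDUFB6 and the assembly factor NDUFAF4. For NDUFA10 and NDUFV2 both lay below WT by more than that distance, beside 5.42% of all genes. The counting intervals of both ratios excluded 1 in the first 5 of the 6 genes above WT and in both genes below it. These intervals cover counting error only, since PCR copies are not independent molecules, and none of these genes passed the test. These counts of 6 and 2 became 1 and 0 under the trimmed-mean and under the median-ratio scaling, where 0 of these 8 genes met the criterion, and 4 and 1 under quantile scaling and with a trend in GC content removed. Over all 14509 genes the counts above and below were 474 and 787 with RPM. They were 593 and 615 with the trimmed mean, 637 and 577 with the median ratio and 748 and 693 with quantiles. With the trend removed they were 937 and 1081 of 14372 genes. By side of WT alone, NDUFA4, NDUFA6 and NDUFA1 lay above it in both libraries also under the 3 scalings and with the trend removed. NDUFB6 lay on both sides of WT in all 4, NDUFB1 with the trend removed, NDUFAF4 with quantile scaling or the trend removed, NDUFA10 with median-ratio scaling, and NDUFV2 under the 3 scalings.

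**Figure D2:**
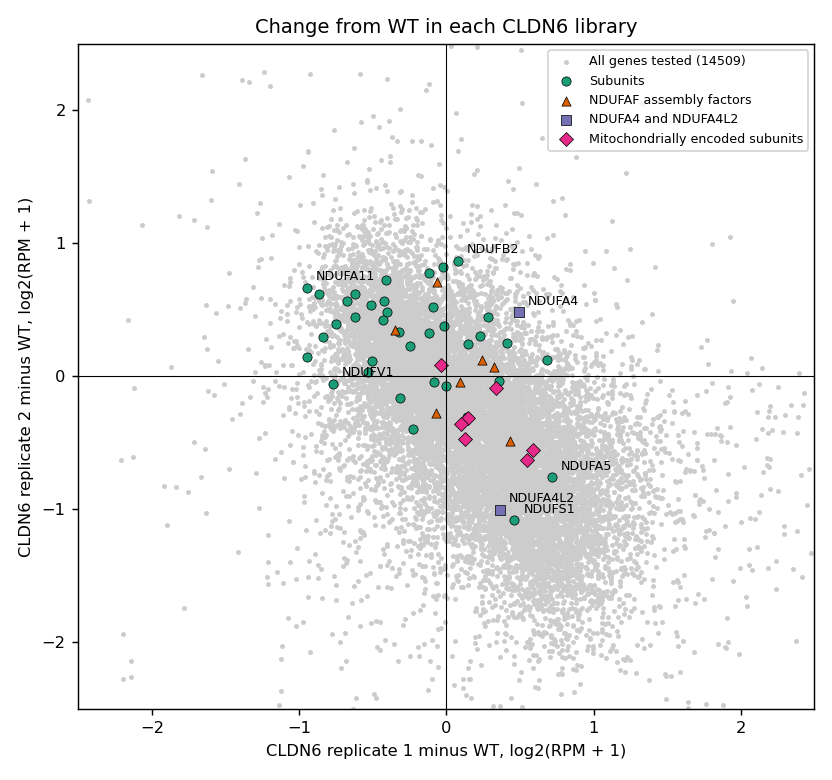
Change from WT in log2(RPM + 1) in CLDN6 replicate 1 (horizontal axis) and replicate 2 (vertical axis) for all 14509 genes tested (grey; the farthest lie outside the axes), nuclear subunits (circles), assembly factors (triangles), NDUFA4 and NDUFA4L2 (squares) and mitochondrially encoded subunits (diamonds). Most subunits lie in the upper left, where replicate 2 is above and replicate 1 below WT, and 6 of 7 mitochondrially encoded subunits lie in the lower right (not under trimmed-mean or median-ratio scaling); both axes share the WT library.

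The 7 assembly factors were read at lower levels than most subunits. Per kilobase of the principal transcript, their median was 4.04 RPM beside 44.2 RPM for the 35 subunits with such a length, and 5 of 7 lay below the lowest subunit. NDUFAF1, which acts in the assembly of the membrane arm, was at 6.09, 5.17 and 6.46 RPM, with both CLDN6 libraries below WT. NDUFAF2, a relative of NDUFA12 that helps to attach the N module, was at 13.7, 24.2 and 14.4 RPM, with replicate 2 apart above.

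NDUFAF3 and NDUFAF4 form a pair that holds the growing Q module. NDUFAF3 was at 22.2, 36.6 and 28.6 RPM with WT in the middle, and its row overlaps DALRD3 on the opposite strand. NDUFAF4 was at 9.97, 9.12 and 8.30 RPM, with both CLDN6 libraries above WT by a small margin. NDUFAF5, which modifies NDUFS7, was at 11.5, 9.50 and 9.02 RPM, also with both above.

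NDUFAF6, a factor of early assembly, was at 9.87, 8.93 and 9.21 RPM, with all 3 libraries close; its row overlaps CCNE2 and TP53INP1. NDUFAF7, a protein methyltransferase, was at 6.597, 3.03 and 4.64 RPM, highest in replicate 1, and overlaps PRKD3, a row at 52.6, 12.4 and 31.8 RPM that has the same order. The median change of the 7 factors was 0.09 in replicate 1 and 0.07 in replicate 2, and replicate 2 exceeded replicate 1 in 2 of 7, beside 32.9% of all genes. This count turned with the scaling, to 6 of 7 under the trimmed-mean, median-ratio and quantile scalings, with medians of -0.10 and 0.42 under the first of these. Whether factors and subunits differ was not tested. On the log2(RPM + 1) scale 0 of 7 factors were 2-fold apart between the CLDN6 libraries without such scaling. Of all genes, 7.15% were so with replicate 2 higher and 36.2% with replicate 1 higher. In plain RPM the ratio of replicate 2 to replicate 1 was 0.459 for NDUFAF7. Under each of the 3 scalings, 2 of 7 factors were at least 2-fold higher in replicate 2, beside 19.5%, 21.1% and 17.9% of all genes. With a trend in GC content, length and level removed, 2 of 7 were, beside 7.93%.

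Assembly factors with other names were also read. Of 12 such genes, among them ACAD9, ECSIT, TIMMDC1 and C17orf89 (the older name of NDUFAF8), 0 were called by limma in either direction and 0 had an unadjusted p under 0.05. In 3 of 12, TMEM186, TMEM70 and TMEM261, both CLDN6 libraries lay above WT (9.06% of all genes) and in 0 both lay below (15.1%). FOXRED1, the one with the highest mean level, was at 38.1, 63.6 and 52.8 RPM, in the order of most subunits. Complex II is the other entry of electrons to ubiquinone and is built from nuclear genes alone. Over 8 genes with its assembly factors, it had medians of 0.00 in replicate 1 and 0.03 in replicate 2, and 0 of the 8 were called. Relative to the medians of all genes, those of complex II were -0.20 and 0.37, beside -0.45 and 0.68 for the 37 nuclear subunits. For the 12 assembly factors with other names they were -0.12 and 0.53. SDHC, its member with the highest mean, was at 116, 100.7 and 97.1 RPM.

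The 7 subunits encoded in mitochondrial DNA ran, in RPM, in the order opposite to most nuclear subunits. Their summed level was 6128 RPM in replicate 1 and 3947 RPM in replicate 2, while WT had 5191 RPM. In 6 of 7 genes replicate 1 was highest and replicate 2 lowest, beside 53.8% of all genes, and 0 of 7 were called. MT-ND4, a proton-pumping subunit of the distal part, was at 2468, 1633 and 2265 RPM, and MT-ND3, named for being the exception, was at 169.8, 185.3 and 174.1 RPM. Under the trimmed-mean and median-ratio scalings this order was not kept, since replicate 2 exceeded replicate 1 in 5 of 7 there, but in 1 of 7 with RPM and 0 of 7 with quantile scaling. The ratio of the nuclear to the mitochondrial sum does not depend on a scaling of whole libraries. As a share of the mitochondrial sum, the nuclear sum was 26.7% in replicate 1, 67.1% in replicate 2 and 40.5% in WT. The share in WT thus lay between those of the CLDN6 libraries. Reads from the mitochondrial genome made up 2.63%, 2.06% and 2.32% of the reads in genes.

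**Figure D3:**
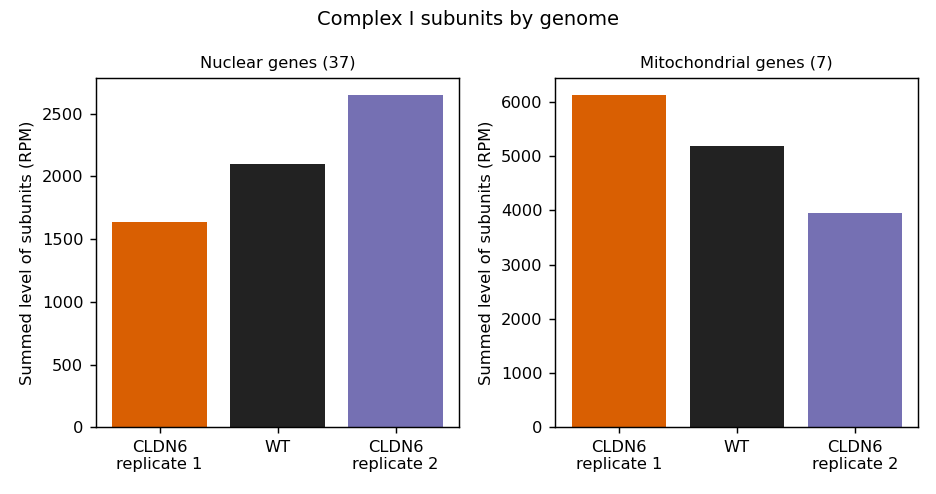
Summed level (RPM, bars from 0) of the 37 nuclear and the 7 mitochondrially encoded subunits of complex I in each library, without error bars because each bar is 1 library. The nuclear sum goes from 1633 to 2100 to 2648 RPM in the order replicate 1, WT, replicate 2, while the mitochondrial sum goes from 6128 to 5191 to 3947 RPM, but under the trimmed-mean and median-ratio scalings replicate 2 exceeded replicate 1 in 5 of the 7 genes.

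Among 9 regulators of mitochondrial biogenesis, 0 were called by limma and 0 had an unadjusted p under 0.05; WT lay between the CLDN6 libraries in all 9, as it did in 75.9% of all genes. YY1, the regulator with the highest mean, was at 110, 49.0 and 90.7 RPM. NRF1 and PPARGC1A, which encodes the coactivator PGC-1alpha, were singled out after their values were seen. NRF1, whose motif was searched above, was at 17.5, 20.2 and 19.7 RPM, and PPARGC1A was at 22.0, 0.365 and 4.81 RPM, on 1564, 24 and 326 reads. PPARGC1A was thus highest in the library where the nuclear subunits summed lowest, and its part in their levels was not tested.

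The distance between the CLDN6 libraries varied among the subunits with the base composition of their transcripts. Across the 37 subunits, replicate 1 minus replicate 2 had a Spearman correlation of -0.69 with the GC content of the longest transcript and of 0.09 with its length. This is across genes that share the same libraries and is given as a description. Over 14372 genes with values, these correlations were -0.61 and 0.44. In the 11 subunits with a GC content of at least 55%, the median difference was -1.10, beside -0.27 for all genes of that range, and replicate 2 was higher in 11 of 11. In the 15 subunits from 45 to 55% GC it was -0.62, beside 0.37 for all genes. In the 11 subunits under 45% it was -0.09, beside 1.37. In each range the subunits thus lay lower than the genes of like GC content, that is, toward replicate 2. Those genes were not matched to the subunits in length. The longest transcript had a median of 1333 bases in the subunits, beside 3437.5 bases in all genes tested. NDUFS1 (42.1% GC) and NDUFA5 (35.0% GC) were the subunits farthest toward replicate 1, and NDUFA11 (62.7%) and NDUFB7 (64.97%) farthest toward replicate 2. The part of base composition in the difference between the libraries was not tested beyond the removal of a trend that follows.

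With a trend in GC content, mean level and transcript length taken out of each library, replicate 2 exceeded replicate 1 in 30 of 37 subunits, beside 50.6% of all genes. The medians of the subunits were then -0.10 in replicate 1 and 0.21 in replicate 2, closer to 0 than before, where those of all genes were -0.01 and 0.00. At least 2-fold apart with replicate 2 higher were 2 of 37, against 10 before, beside 7.93% of all genes with the trend removed. The mitochondrially encoded subunits had the opposite order, with medians of 0.41 and -0.58. Among the assembly factors, replicate 2 then exceeded replicate 1 in 7 of 7, with medians of -0.26 and 0.38.

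Rows that overlap other genes were frequent among these genes, which bears on single values. Of 37 subunits, 20 overlapped a row of at least 1 RPM, and the strand setting of the counting is not given in the sources used here. In the 17 subunits without such a row, medians were -0.12 in replicate 1 and 0.11 in replicate 2. Replicate 2 exceeded replicate 1 in 12 of these 17 (32.9% of all genes), and by at least 2-fold in 2 (7.15%). WT lay between with replicate 2 highest in 9 of 17, beside 22.0% of all genes.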

How the data were processed

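Per the labels' protocols, total RNA of 3 Ishikawa samples was isolated with TRIzol, and libraries were made by Illumina's methods. The authors deposited 1 table of log2 values, on GRCh38 per the submitters' processing notes. For the aligner, counter, annotation release, strand setting and reads with several matches, the entry is: not given in the sources used here. Headers start with ECC-1 where the labels say Ishikawa; columns were matched by the words CLDN6 1, CLDN6 2 and WT. In each column, a deposited value taken out of log2 was a whole multiple of the worth of 1 read in 99.986%, 99.9581% and 99.9804% of cases (within 0.05 read), so the values are log2 of RPM and whole reads were recovered. Genes listed at 0.9 of a read were set to 0 reads. A count of 0 allows up to 3 reads, or 0.0422, 0.0456 and 0.0442 RPM. Between the CLDN6 libraries the chi-square was 601 per gene, far beyond sampling noise, and they were counted separately.

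Gene IDs served to restore 28 names turned into dates, and 92 rows that lack an ID, or share one and have no read, were left out. Of the IDs, 34884 were found in GENCODE release 29, which gave GC content and lengths; per-kilobase levels used the longest APPRIS principal transcript. Coordinates are those of the table. Values of 1 member are not reported singly here; it is part of the counts, sums and medians.

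On the log2(RPM + 1) scale, the 14509 genes whose mean reached 1 RPM were fitted with limma 3.58.1 in R 4.3.3 with a mean-variance trend, CLDN6 against WT, with two-sided p-values adjusted by Benjamini-Hochberg over all genes and a threshold of 0.05. The fit has 1 residual degree of freedom, p-values measure only the spread between these samples, and WT, with 1 library, is given the spread of the CLDN6 pair. The script was tested on simulated data with a far smaller spread between libraries than was seen here. That test therefore does not show how well the fit finds changes in these data. The ratio intervals are exact binomial 95% intervals. The members and gene lists were chosen with earlier results of these data known. Genes named were the 6 subunits farthest above and the 5 below WT in both CLDN6 libraries, the 4 farthest apart between them, the highest of each module, all NDUFAF assembly factors, NDUFA4, NDUFA4L2 and, of each related list, the gene with the highest mean. Other members and related genes with values were chosen after these were seen. Alternatives were a pseudocount of 0.1, no filter, a mean of at least 5 RPM, 3 other scalings, removal of a trend with GC content, length and level (splines of 5 degrees of freedom), limma-voom on recovered reads, limma without a trend, a limit of 1.5-fold, the fit without the CLDN6 row, and leaving out each CLDN6 replicate.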

Additional observations from a re-analysis of the deposited data

How the results depend on the processing

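No member was called under any of the alternatives run, with adjusted p from 0.999939 upward (limma and limma-voom, Benjamini-Hochberg) and 0 members at an unadjusted p under 0.05. Without either CLDN6 replicate no degree of freedom is left, so no test was made. The count of members at least 2-fold below WT was then 2 without replicate 1 and 0 without replicate 2, and that above stayed at 0. Each of these counts rests on 1 CLDN6 library, and the share of all genes past that limit in 1 library is not given here. In replicate 2 alone the median change of all genes was -0.35. No paired analysis was possible because WT is a single library without a replicate number.

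The median change of the subunits, averaged over the CLDN6 libraries, was -0.0052 and ranged from -0.25 to 0.33 without one CLDN6 replicate; every other alternative moved it by less than the spread of the CLDN6 libraries. That of the assembly factors was 0.025, and became 0.103 with a mean of at least 5 RPM, 0.101 with the trimmed-mean (TMM-like) scaling, 0.117 with the median-ratio (RLE) scaling, 0.130 with quantile normalization, 0.125 with the trend removed and 0.102 relative to all genes, and 0.068 to 0.091 without one replicate. The count of subunits higher in replicate 2 than in replicate 1 was 29, and 34, 35 and 34 under the trimmed-mean, median-ratio and quantile scalings. The split of subunits around WT, with replicate 2 highest in 22 beside 22.0% of all genes, became 29, 30 and 28 there. The share of all genes with this split under these scalings is not given here. With the trend removed the split was seen in 20 of 37 subunits, beside 31.1% of all genes. The number at least 2-fold higher in replicate 2, 10 at first, became 23, 24 and 17 under these scalings, while the share of all genes went from 7.15% to 19.5%, 21.1% and 17.9%; with the trend removed it was 2, beside 7.93%. Added after the data were seen, subunits without an overlapping row of at least 1 RPM gave a median of -0.036.

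Of 26 named members, 7 changed sign under an alternative other than leaving out a replicate, all from small values; the cause was not tested. Under the trimmed-mean scaling the log2 changes were 0.043 for NDUFA12, 0.057 for NDUFA5, 0.081 for NDUFAF3, 0.026 for NDUFAF7 and 0.018 for NDUFV3. Under the median-ratio scaling they were 0.061 for NDUFA12, 0.074 for NDUFA5, 0.017 for NDUFA9, 0.098 for NDUFAF3, 0.040 for NDUFAF7 and 0.035 for NDUFV3. Under quantile normalization they were 0.063 for NDUFA12, 0.133 for NDUFA5 and 0.079 for NDUFAF7. With the trend removed they were 0.098 for NDUFA5, 0.107 for NDUFA9, 0.125 for NDUFAF3, 0.0075 for NDUFAF7, 0.049 for NDUFB7 and 0.035 for NDUFV3.

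Without one CLDN6 replicate the change ranged from -0.95 to 0.67 for NDUFA11, -1.001 to 0.36 for NDUFA4L2, -0.76 to 0.72 for NDUFA5, -0.62 to 0.45 for NDUFA9, -0.021 to 0.83 for NDUFAB1, -0.066 to 0.71 for NDUFAF2, -0.35 to 0.35 for NDUFAF3, -0.041 to 0.091 for NDUFAF6, -0.49 to 0.43 for NDUFAF7, -0.87 to 0.62 for NDUFB7 and -1.08 to 0.46 for NDUFS1. With 1 WT library, no spread of WT was measured, and members with few reads, such as NDUFA4L2 with 92 in replicate 2, carry more counting error.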
